A study of Drosophila melanogaster with 4 samples.

Results

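Prolyl 4-hydroxylase alpha genes encode the catalytic subunit of an enzyme of the endoplasmic reticulum that hydroxylates prolines, best known from collagen. The alpha subunit works in a complex with protein disulfide isomerase and needs iron, 2-oxoglutarate and ascorbate; hydroxyproline stabilizes the collagen triple helix, so that the enzyme is tied to basement membrane secretion. In Drosophila the alpha genes form a large family, and most of the lettered names come from where in situ hybridization placed the transcripts in embryos: SG for the salivary gland, EFB for epidermis and fat body, MP for mouth parts, PV for the proventriculus and NE for genes with no expression seen.

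Here 6 of these genes, PH4alphaSG1, PH4alphaSG2, PH4alphaEFB, PH4alphaNE1, PH4alphaMP and PH4alphaPV, were followed among the 17875 genes listed in each library. They were picked because some of them were restricted to a tissue and because PH4alphaNE1 was so much lower at the later stage. Their levels by cell type and their stage differences are therefore given as descriptions, without p-values.

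The data are droplet single-cell libraries of whole wild-type (Oregon R) Drosophila embryos, 2 libraries of stages 13-16 and 2 of stages 10-12, with no transgene or treatment in either group. Each library came from its own embryo collection and dates, and the younger embryos were aged at a lower temperature, so that stage, temperature and collection cannot be told apart. From its ordering of cells by expression (pseudotime), the paper proposes that the 2 libraries of stages 13-16 differed in age. Replicate 2 was enriched for the earlier embryos of that range and replicate 1 for the later ones. Levels are given as CPM, counts of unique molecular identifiers (UMIs, each counting 1 captured RNA molecule) per 1000000 UMIs of the cells summed, always for replicates 1 and 2 in that order. The libraries held 71622535 to 394684653 UMIs, of which stages 13-16 replicate 2 had the most, and 7554 to 22072 cells were kept in each.

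Clusters were named for the cell type whose markers they carried (salivary gland-like, plasmatocyte-like and so on, written without the suffix from here on), with the genes described here and their partners kept out of the clustering. The names rest on clusters rebuilt from the counts and need not match the study's own. In each library the cells of a name were higher than the other cells for 7 of 7 markers of the salivary gland, 19 of 19 of epidermis, 20 of 20 of the CNS, 9 of 10 of plasmatocytes, 17 of 18 of somatic muscle and 5 of 6 of fat body, the last 2 types each having 1 listed marker that was not matched in the files. The 17 cells called apodemes in stage 10-12 replicate 2 had none of their 4 markers. Levels in removed droplets, which were barcodes of clusters with few markers, are given for the described genes where free RNA could contribute. Pairs of libraries shared 94 to 389 cell barcodes, at most 1.10% of a library.

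All 6 genes lie on the right arm of chromosome 3. In the reference annotation, which is newer than the one the authors counted with, PH4alphaEFB (FBgn0039776) is at chr3R:30466050-30485799 on the plus strand and PH4alphaPV (FBgn0051015), 180056 bp from its start, at chr3R:30646106-30648551 on the minus strand. Between them stand PH4alphaSG2 (FBgn0039779, chr3R:30490074-30491987, plus), PH4alphaMP (FBgn0026190, chr3R:30491813-30496153, minus), PH4alphaNE1 (FBgn0039780, chr3R:30496751-30500326, minus) and PH4alphaSG1 (FBgn0051014, chr3R:30503665-30505661, minus), all within 15.588 kb. Of 26 listed family genes, 16 are in the 182.502 kb between PH4alphaEFB and PH4alphaPV. PH4alphaSG2 and PH4alphaMP overlap tail to tail by 175 bp, and PH4alphaEFB overlaps spdo. Whether the counting used strand is not given in the sources used here. It is therefore not known whether 3′ reads of PH4alphaSG2 and PH4alphaMP were told apart within the overlap. Salivary gland cells of stages 13-16 replicate 2 held 2858 UMIs of PH4alphaSG2, and 0% of them had a PH4alphaMP UMI.

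**Figure D1:**
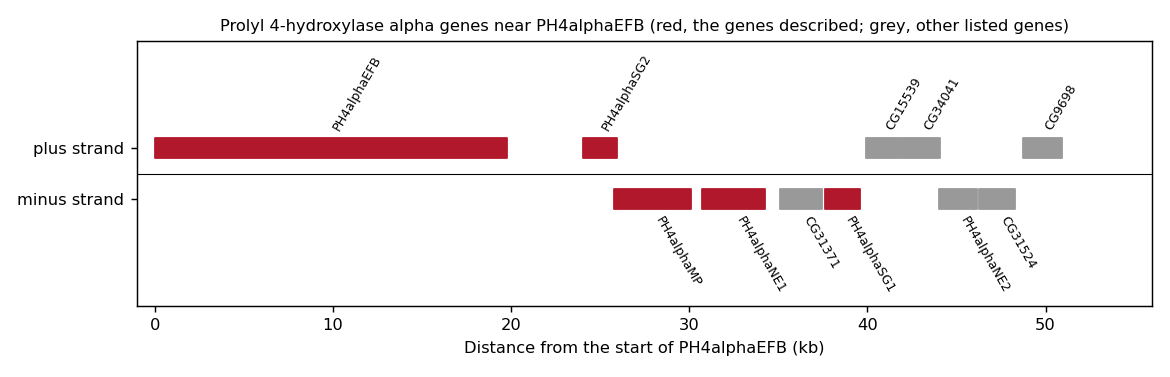
Positions of the prolyl 4-hydroxylase alpha genes nearest PH4alphaEFB, as distance from the start of PH4alphaEFB in kb, with plus-strand genes above and minus-strand genes under the line. Red bars are the genes described here and grey bars other listed genes of the family; PH4alphaSG2, PH4alphaMP, PH4alphaNE1 and PH4alphaSG1 stand within 15.588 kb, and PH4alphaPV lies beyond the right edge.

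Over all barcodes of a library, PH4alphaNE1 had 0.876 and 1.03 CPM at stages 13-16 (163 and 405 UMIs), against 180 and 110 CPM at stages 10-12 (28929 and 7855 UMIs). The mean was 152-fold higher at stages 10-12, and no gene among the 12476 with at least 50 UMIs was lower at stages 13-16 by more on the log2(CPM + 1) scale, on which PH4alphaNE1 differed by -6.22 and the median gene by 0.10. PH4alphaNE1 was chosen for this difference, which is given as a description.

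The other 5 genes were higher at stages 13-16 than at stages 10-12, with libraries that did not overlap. PH4alphaEFB had 104 and 176 CPM at stages 13-16, against 85.7 and 57.8 CPM at stages 10-12. PH4alphaSG2 had 13.7 and 15.4 CPM, against 4.93 and 5.64 CPM, and PH4alphaSG1 had 8.25 and 9.75 CPM, against 4.57 and 3.17 CPM. The means were 1.95-fold (PH4alphaEFB), 2.75-fold (PH4alphaSG2) and 2.33-fold (PH4alphaSG1) those of stages 10-12. The genes named for mouth parts and proventriculus were rare: PH4alphaMP had 0.919 and 1.07 CPM at stages 13-16, against 0.398 and 0.195 CPM at stages 10-12, and PH4alphaPV had 0.301 and 0.707 CPM, against 0.0622 and 0.0279 CPM (10 and 2 UMIs). Libraries of the 2 stages did not overlap for 62.3% of the 12476 genes, 39.4% higher and 22.9% lower at stages 13-16. Since the genes were picked partly on this contrast, nothing is read from their count.

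**Figure D2:**
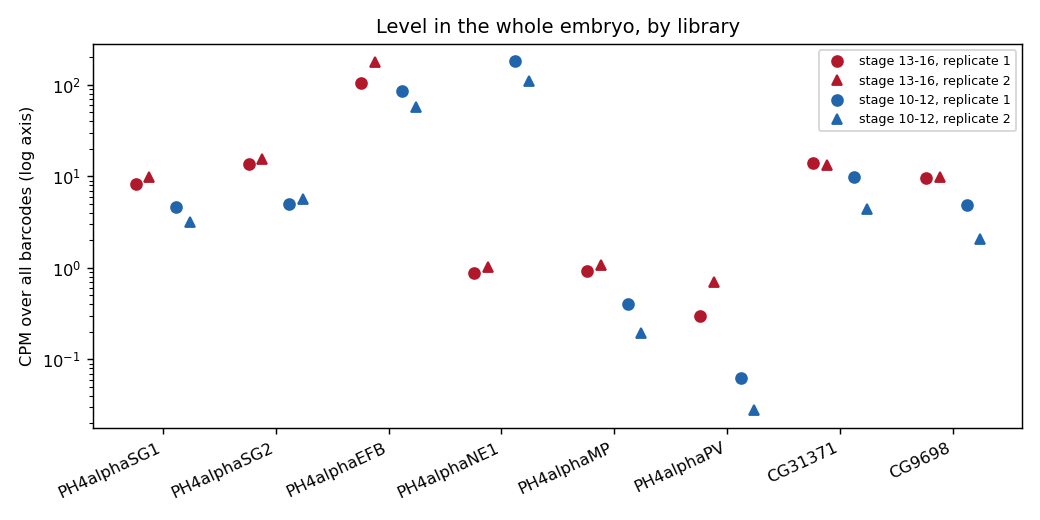
Level of each gene in the whole embryo (CPM over all barcodes, log axis), for stages 13-16 (red) and stages 10-12 (blue); each point is 1 library, with circles for replicate 1 and triangles for replicate 2. PH4alphaNE1 had 0.876 and 1.03 CPM at stages 13-16 and 180 and 110 CPM at stages 10-12, while the other genes shown were higher at stages 13-16.

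PH4alphaSG1 and PH4alphaSG2 marked the salivary gland in each of the 4 libraries. In Drosophila both are known targets of the gland transcription factors Fork head and Sage, and are needed for an open gland lumen of even width. PH4alphaSG2 had 166 and 1282 CPM in salivary gland cells at stages 13-16 (115 and 2858 UMIs), against 472 and 772 CPM at stages 10-12 (330 and 268 UMIs). PH4alphaSG1 had 102 and 800 CPM at stages 13-16 (71 and 1784 UMIs), against 238 and 311 CPM at stages 10-12 (166 and 108 UMIs). The salivary gland ranked first for both genes in every library.

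The stages overlapped for both genes in the gland, because the replicates of stages 13-16 lay on either side of those of stages 10-12. The gland cells themselves differed: 287 and 54 cells carried the name at stages 13-16, against 59 and 63 at stages 10-12, and the 7 gland markers summed to 24737 and 318643 CPM at stages 13-16, against 45268 and 57695 CPM at stages 10-12. The 19 epidermis markers (2 at 0 in stages 10-12 replicate 2, none at 0 in the others) summed to 11771 CPM in the gland cells of stages 13-16 replicate 1 and to 4305 CPM in those of replicate 2, against 7265 and 4685 CPM at stages 10-12. Their sum in removed droplets was 9918 and 11347 CPM at stages 13-16, against 7593 and 6286 CPM at stages 10-12, and the part of such RNA in the gland values was not tested. In gland cells with at least 5% of their UMIs in the gland markers, a cut chosen after seeing the data, PH4alphaSG1 had 460 and 859 CPM at stages 13-16 (22 and 30 cells), against 666 and 893 CPM at stages 10-12 (7 and 5 cells). PH4alphaSG2 had 775 and 1328 CPM in these cells at stages 13-16, against 1152 and 1398 CPM at stages 10-12. These few cells held 38 of 71 and 1690 of 1784 gland UMIs of PH4alphaSG1, against 126 of 166 and 83 of 108 at stages 10-12. For PH4alphaSG2 they held 64 of 115 and 2612 of 2858 UMIs, against 218 of 330 and 130 of 268. In these cells the mean difference between the stages turned negative for both genes, with libraries still overlapping. Over all gland cells without stages 13-16 replicate 2 the difference was -1.42 for PH4alphaSG1 and -1.91 for PH4alphaSG2 (log2). No direction between the stages is therefore given for these genes in the gland. The gland class also leaves out an unnamed cluster of stages 13-16 that scored 0.79 for the gland. It held 804 cells in each library.

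Most gland cells with 1 of the 2 transcripts in the deepest library had the other. In stages 13-16 replicate 2, where gland cells had a median of 19012 UMIs, 37 of 54 cells held both transcripts, 3 PH4alphaSG1 alone, 1 PH4alphaSG2 alone and 13 neither. In the other libraries the median was 2116 to 3291 UMIs, and neither transcript was seen in 215 of 287 cells at stages 13-16 (replicate 1), and in 33 of 59 and 46 of 63 cells at stages 10-12. With each cell thinned to 1000 UMIs, which left out no gland cell, 6.97% and 35.2% of gland cells had a PH4alphaSG1 UMI at stages 13-16, against 10.2% and 7.94% at stages 10-12. The CNS, which should lack this gene, had 0.683% and 0.880% at stages 13-16, against 0.402% and 0.0944% at stages 10-12, with median depths of 2553 and 4565 UMIs at stages 13-16, against 4637 and 2820 UMIs at stages 10-12. Shallower CNS cells were left out of the thinning, which kept 3661 of 3689 and 4548 of 4553 cells at stages 13-16, against 2239 of 2242 and 1059 of 1060 at stages 10-12. For PH4alphaSG2 the thinned shares in the gland were 8.36% and 50.0%, against 15.3% and 7.94%, and those in the CNS 1.07% and 1.39%, against 0.179% and 0.189%. Before thinning, a PH4alphaSG1 UMI was present in 14.6% and 74.1% of gland cells at stages 13-16, against 25.4% and 17.5% at stages 10-12.

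**Figure D3:**
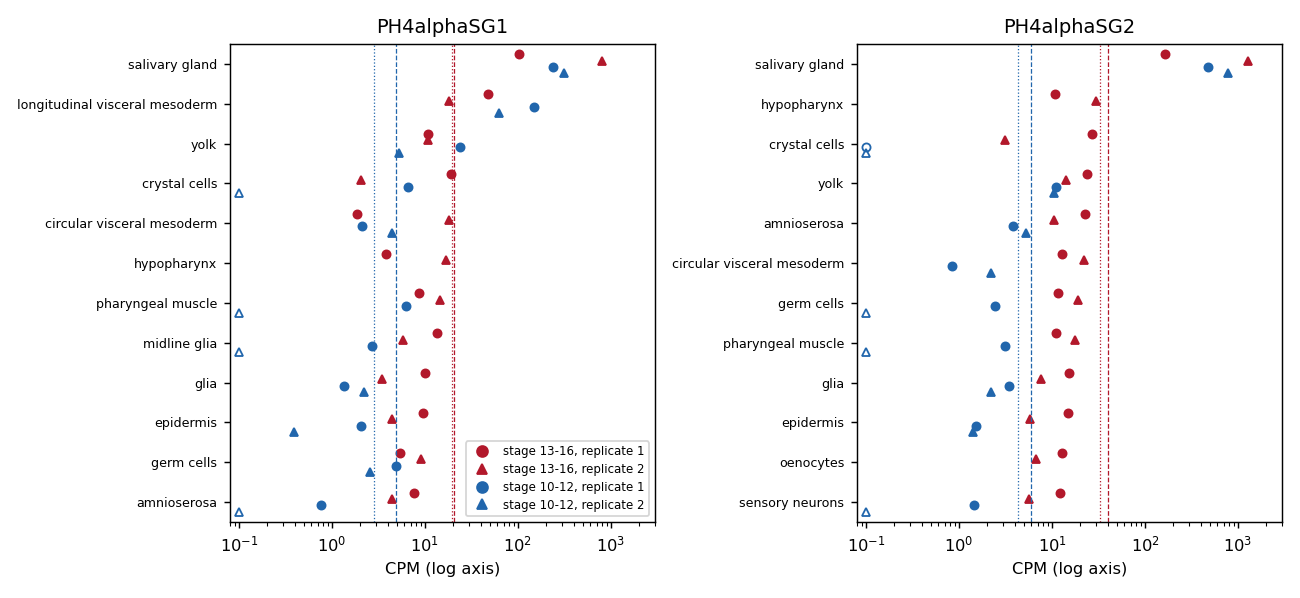
PH4alphaSG1 (left) and PH4alphaSG2 (right) by cell type in CPM (log axis), in libraries of stages 13-16 (red) and stages 10-12 (blue); circles are replicate 1 and triangles replicate 2, open symbols are 0 UMIs drawn at the left edge, and vertical lines give the level in removed droplets (dashed, replicate 1; dotted, replicate 2). The salivary gland stands first in all 4 libraries for both genes, and longitudinal visceral mesoderm is second for PH4alphaSG1 except in stages 13-16 replicate 2, where circular visceral mesoderm (18.1 CPM on 9 UMIs) matches it.

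PH4alphaSG1 had another site. In longitudinal visceral mesoderm, the migrating precursors of the outer gut muscle, it had 47.5 and 18.1 CPM at stages 13-16 (51 and 49 UMIs), against 147 and 62.6 CPM at stages 10-12 (153 and 23 UMIs). The mean fell short of that of stages 10-12 by 1.68 on the log2 scale without overlap of the libraries, and at stages 10-12 both libraries were far above the removed droplets (4.90 and 2.85 CPM). At stages 13-16 the removed droplets held 20.7 and 19.5 CPM, so that only replicate 1 exceeded them. PH4alphaSG2 had 10.2 and 8.11 CPM in these cells at stages 13-16, against 0.964 and 0 CPM at stages 10-12 (1 and 0 UMIs), under the level of the removed droplets of each library. At stages 10-12, 36 of 100 and 8 of 76 of the cells held PH4alphaSG1 alone, and 1 and 0 held both. After thinning, 13.0% and 5.26% of these cells had a PH4alphaSG1 UMI at stages 10-12, above the CNS shares of 0.402% and 0.0944%.

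Low levels of both gland genes were seen in other cell types. For PH4alphaSG1, of the cell types with at least 50 UMIs, 7 were higher at stages 13-16, 1 was lower (longitudinal visceral mesoderm) and 3 overlapped (the gland, the gut primordia and yolk). PH4alphaSG2 had 7.77 and 6.26 CPM in the CNS at stages 13-16, against 1.65 and 0.787 CPM at stages 10-12. Libraries of stages 13-16 were all higher in 15 of the cell types with at least 50 UMIs and overlapped in the other 1, the salivary gland. The share over all genes is not given for these counts, so that nothing is read from them. The removed droplets moved in the same direction, with 39.9 and 32.4 CPM of PH4alphaSG2 at stages 13-16, against 5.93 and 4.33 CPM at stages 10-12. Among the listed products of the gland, 3 that also served as markers to name its cells did likewise. The calls of the other listed products are not given here. CG14756, nur and CG13159 rose in all 6 non-gland cell types tested (log2 differences of 3.75 to 5.83, each with an adjusted p under 0.05 by edgeR's quasi-likelihood test). In these cell types 13.8% to 22.4% of all genes tested were called higher. In the CNS nur reached 571 and 654 CPM at stages 13-16, against 33.0 and 16.8 CPM at stages 10-12. The part of free RNA in these values was not tested.

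PH4alphaSG2 and PH4alphaSG1 shared their most similar gene, CG8708. Over 93 combinations of cell type and library, PH4alphaSG2 correlated most with CG8708 (Pearson r of 0.91 on log2(CPM + 1)), with pip (0.90), a sulfotransferase gene and one of the gland markers, and with CG34190 (0.89). PH4alphaSG1 correlated most with CG8708 (0.77), CG14636 (0.76) and PH4alphaSG2 (0.75). The points share libraries and depth, so that these are descriptions, and by Spearman correlation 1 of the 3 genes was retained for PH4alphaSG2 and 0 of the 3 for PH4alphaSG1.

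UMIs of PH4alphaEFB were counted in every cell type, and its level was highest in plasmatocytes, the macrophage-like blood cells that secrete much of the embryonic basement membrane. Plasmatocytes had 402 and 822 CPM at stages 13-16 (2349 and 6139 UMIs), against 451 and 286 CPM at stages 10-12 (1832 and 382 UMIs), and ranked first in each library. Fat body had 186 and 401 CPM at stages 13-16, against 203 and 146 CPM at stages 10-12. Hindgut muscle had 184 and 261 CPM, against 231 and 185 CPM, and circular visceral mesoderm 153 and 181 CPM, against 251 and 169 CPM. In these 4 cell types the stages overlapped, and the replicates of a stage differed by up to 2.16-fold (fat body, stages 13-16).

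Epidermis differed between the stages. It had 130 and 269 CPM of PH4alphaEFB at stages 13-16 (3134 and 15509 UMIs), against 78.8 and 43.5 CPM at stages 10-12 (2053 and 337 UMIs), and the mean was 3.26-fold higher at stages 13-16. Within the epidermis of stages 13-16 the cells led by Osi6 and Osi7, genes of the late epidermis and trachea, had 248 and 400 CPM. Epidermis held 23.8% and 31.2% of all PH4alphaEFB UMIs of the kept cells at stages 13-16, against 17.8% and 10.0% at stages 10-12, while somatic muscle held 12.0% and 10.2%, against 22.9% and 29.5%. Hypopharynx and oenocytes (lipid-handling cells of the body wall) were found at stages 13-16, with 244 and 213 CPM in hypopharynx and 204 and 246 CPM in oenocytes.

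Neural and germ cells stood low for PH4alphaEFB at stages 10-12, and gut endoderm at stages 13-16, where it had 49.9 and 50.9 CPM, against 33.2 and 35.1 CPM at stages 10-12. The CNS had 56.2 and 89.1 CPM at stages 13-16, against 39.0 and 26.6 CPM at stages 10-12, and germ cells 57.2 and 97.4 CPM, against 31.5 and 17.8 CPM. Levels in removed droplets were 74.0 and 156 CPM at stages 13-16, against 56.9 and 43.5 CPM at stages 10-12, above the CNS in all 4 libraries. In stages 13-16 replicate 2, but not in the other libraries, the droplets were also above the median cell type (114 CPM). The part of free RNA in the lower cell types was not tested. After thinning to 1000 UMIs, 17.1% and 54.8% of plasmatocytes had a PH4alphaEFB UMI at stages 13-16, against 28.1% and 15.5% at stages 10-12, and 6.56% and 10.7% of CNS cells, against 5.05% and 3.21%. By thinned share plasmatocytes ranked first in 3 of the 4 libraries; in stages 13-16 replicate 1 oenocytes (23.4%) and hypopharynx (22.9%) were above them.

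**Figure D4:**
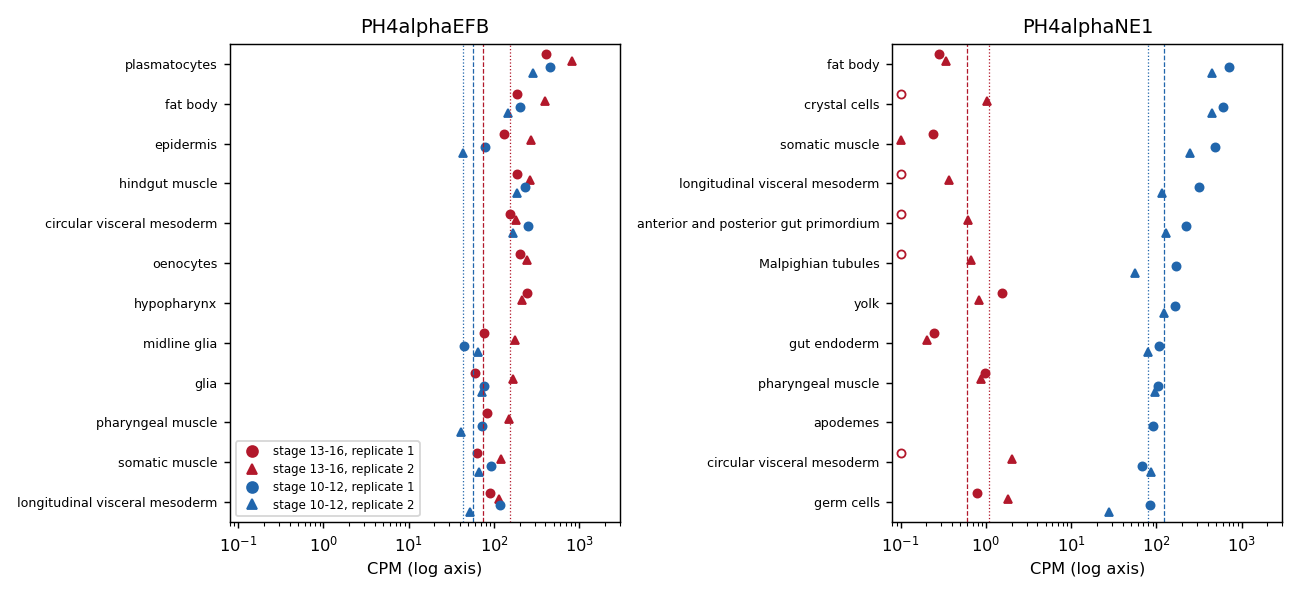
PH4alphaEFB (left) and PH4alphaNE1 (right) by cell type in CPM (log axis), for stages 13-16 (red) and stages 10-12 (blue), with circles for replicate 1, triangles for replicate 2, open symbols for 0 UMIs and vertical lines for removed droplets (dashed, replicate 1; dotted, replicate 2). PH4alphaEFB is highest in plasmatocytes at both stages, and PH4alphaNE1 of stages 13-16 lies under 4 CPM in every cell type shown, against up to 700 CPM at stages 10-12.

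The partners of PH4alphaEFB in collagen maturation shared its leading cell type. Plod, the procollagen lysyl hydroxylase, had 1409 and 2123 CPM in plasmatocytes at stages 13-16, against 857 and 505 CPM at stages 10-12. Plod was also the gene most like PH4alphaEFB over the 93 combinations (r = 0.79), beside CG31915 (0.79) and the laminin gene LanA (0.75). Pdi, the gene of protein disulfide isomerase, had 4111 and 5197 CPM in plasmatocytes, against 3278 and 2159 CPM, and Fkbp14, an isomerase of the endoplasmic reticulum, 2733 and 3513 CPM, against 2893 and 2258 CPM. All 3 ranked first in plasmatocytes in each library, as did the collagen IV genes Col4a1 and vkg, the substrates.

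**Figure D5:**
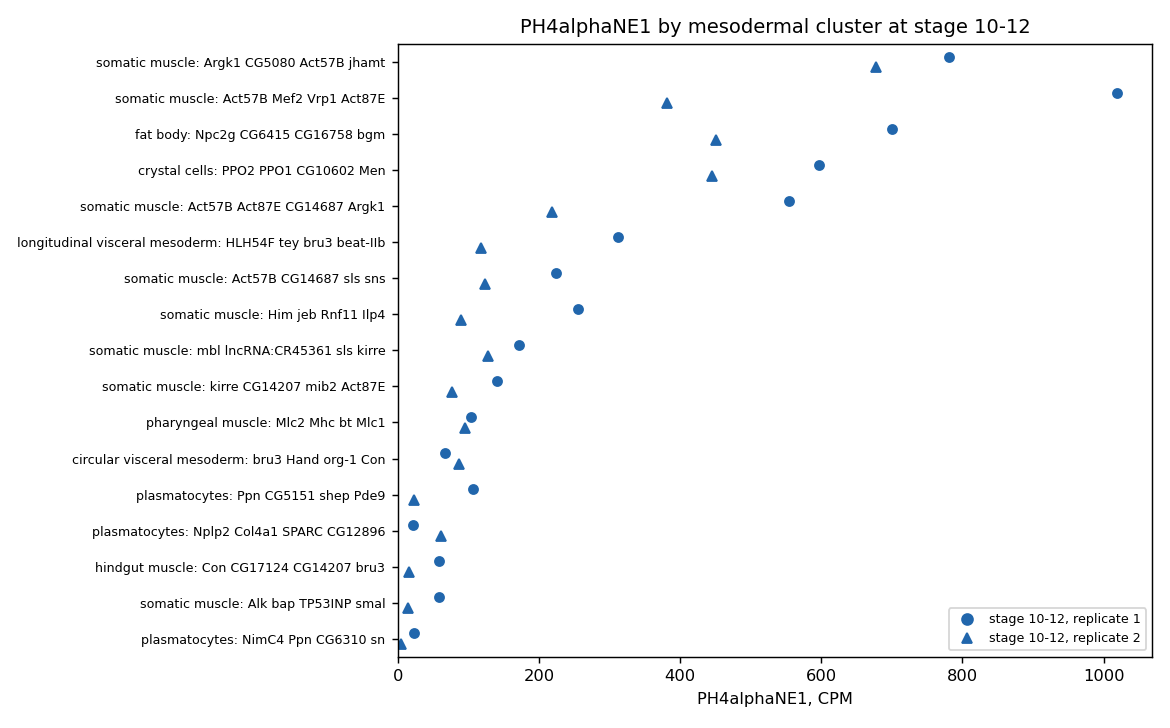
PH4alphaNE1 at stages 10-12 in each cluster of mesodermal origin, named by cell type and leading genes, in CPM (linear axis); circles are replicate 1 and triangles replicate 2. The muscle cluster led by Argk1 had 780 and 678 CPM, and that led by Act57B, Mef2 and Vrp1 had 1019 CPM in replicate 1 but 381 CPM in replicate 2, under fat body (451 CPM) and crystal cells (445 CPM) of that library.

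PH4alphaNE1 at stages 10-12 was highest in fat body, crystal cells and somatic muscle, in this order of CPM in both libraries. Fat body had 700 and 451 CPM, crystal cells (the phenoloxidase-making blood cells) 597 and 445 CPM, somatic muscle 484 and 247 CPM and longitudinal visceral mesoderm 312 and 117 CPM. Somatic muscle held 57.1% and 56.2% of its UMIs in kept cells. The gut primordia had 224 and 129 CPM, and epidermis 39.4 and 23.5 CPM. Circular visceral mesoderm had 67.4 and 86.5 CPM and hindgut muscle 58.5 and 16.1 CPM. Plasmatocytes, the other blood cell type, had 30.3 and 14.98 CPM, and the CNS 32.6 and 17.7 CPM. Removed droplets had 121 and 80.4 CPM, above epidermis, plasmatocytes and CNS. After thinning, 35.0% and 18.9% of fat body cells, 24.8% and 16.3% of somatic muscle cells, 23.0% and 9.21% of longitudinal visceral mesoderm cells and 18.4% and 15.8% of crystal cells had a UMI, so that crystal cells stood under somatic muscle by share. Plasmatocytes had 5.82% and 4.52%, and the CNS 5.72% and 4.06%.

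Muscle clusters of stages 10-12 differed widely among themselves. The cells led by Act57B, Mef2 and Vrp1 (also sing, a gene of myoblast fusion) had 1019 and 381 CPM, and those led by Argk1 and CG5080 had 780 and 678 CPM. Muscle cells led by Act57B, Act87E and CG14687 followed with 555 and 218 CPM, whereas cells led by Him, an inhibitor of muscle differentiation, had 255 and 90.0 CPM. Replicate 1 was higher in each of these clusters, and the order of the leading pair differed between the replicates. PH4alphaNE1 was itself among the leading genes of the cluster with Act57B, Mef2 and Vrp1.

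At stages 13-16 almost nothing was left. PH4alphaNE1 had 0.238 and 0.0957 CPM in somatic muscle (6 and 4 UMIs), against 484 and 247 CPM at stages 10-12 (13665 and 3660 UMIs). Fat body had 0.284 and 0.342 CPM at stages 13-16 (3 and 7 UMIs; exact 95% Poisson intervals of 0.0587 to 0.831 and 0.137 to 0.704 CPM), against 700 and 451 CPM at stages 10-12. In all 19 cell types with at least 50 UMIs of the gene, both libraries of stages 13-16 lay under both of stages 10-12. The gene was picked for this fall, and cell types reached 50 UMIs mainly through stages 10-12, so that nothing is read from this count. No UMI was found in 13 of 24 cell types of replicate 1 and 2 of 24 of replicate 2 at stages 13-16. In the fits across genes, PH4alphaNE1 had the largest negative log2 difference in somatic muscle (-11.16 of 9297 genes), fat body (-10.67 of 7827), CNS (-6.14 of 9306) and trachea (-6.18 of 7194), and the second largest in plasmatocytes (-6.09 of 7552) and over all kept cells (-7.46 of 11977). Its rank was 3 in the salivary gland (-3.93 of 4689) and 15 in epidermis (-3.43 of 9683).

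What remained of PH4alphaNE1 was mostly epidermal. Epidermis had 3.03 and 3.17 CPM at stages 13-16 (73 and 183 UMIs), against 39.4 and 23.5 CPM at stages 10-12, and held 67.6% and 66.5% of the UMIs of the kept cells, against 4.29% and 2.80% at stages 10-12. Its epidermal cluster led by CG9184 and CG10591 had 6.13 and 6.86 CPM (42 and 148 UMIs). Removed droplets had 0.599 and 1.08 CPM at stages 13-16, under both libraries of epidermis. PH4alphaNE1 correlated most with CG17059 (r = 0.83), CG10581 (0.79) and TfIIA-S (0.79), the last a general transcription factor subunit, and by Spearman correlation 0 of these 3 were retained.

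PH4alphaMP was seen at stages 13-16 in the epidermis and in cells of the head. Epidermis had 2.16 and 2.72 CPM (52 and 157 UMIs), against 0.537 and 0 CPM at stages 10-12 (14 and 0 UMIs). Hypopharynx, a mouth part, had 5.70 and 1.75 CPM (9 and 5 UMIs), and an unnamed cluster with the head selector gene Dfd among its leading genes 3.36 and 8.79 CPM (6 and 60 UMIs). Removed droplets held 1.40 and 1.03 CPM at stages 13-16. In somatic muscle PH4alphaMP went the other way, with 0.358 and 0.335 CPM at stages 13-16 (9 and 14 UMIs), against 0.921 and 0.541 CPM at stages 10-12 (26 and 8 UMIs). Its most similar genes were osy (r = 0.62), hgo (0.62) and CG9514 (0.61).

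PH4alphaPV was rare in all cell types, and its largest count was in the gut endoderm, which forms the midgut, of stages 13-16 replicate 2. Gut endoderm had 1.25 and 4.73 CPM at stages 13-16 (5 and 70 UMIs), against 0 and 0 CPM at stages 10-12, where a count of 0 allows up to 1.08 and 2.57 CPM. Of the UMIs in kept cells at stages 13-16, these were 5 of 27 and 70 of 145. In replicate 1 the 5 UMIs put gut endoderm behind midline glia and pharyngeal muscle, which held 1 and 4 UMIs. Removed droplets had 0.533 and 0.762 CPM at stages 13-16, against 0 and 0 CPM at stages 10-12. In stages 13-16 replicate 2 a UMI was present in 5.09% of the 609 gut endoderm cells, which had a median of 22427 UMIs, but in 0 of them after thinning to 1000 UMIs, where germ cells kept 0.810%; in replicate 1 the gut endoderm share was 0.566%, and 0.228% after thinning. At this depth no order of cell types is read from the shares. With under 200 UMIs in kept cells, no similar genes were looked for.

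Of the 20 further genes listed for the family, 5 had at least 50 UMIs in kept cells, and CG31371 and CG9698 had the most. CG31371, which lies between PH4alphaNE1 and PH4alphaSG1, had 4.36 and 4.15 CPM in fat body at stages 13-16, against 97.1 and 59.5 CPM at stages 10-12, and 36.1 and 48.4 CPM in epidermis, against 20.0 and 6.71 CPM. It was thus lower in fat body and higher in epidermis at stages 13-16, with libraries that did not overlap in either. CG9698 had 25.001 and 34.71 CPM in epidermis at stages 13-16, against 20.2 and 10.2 CPM at stages 10-12, and 1.23 and 1.42 CPM in fat body, against 0.434 and 0.438 CPM. PH4alphaNE2 and PH4alphaNE3 were nearly absent, with 3 and 27 UMIs in kept cells at stages 13-16, against 1 and 6 UMIs at stages 10-12. Membership of the family rests on the list, since no protein sequence was used.

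The surroundings of the enzyme were followed with 2 lists, 16 genes of collagen maturation and the endoplasmic reticulum and 15 of collagens and basement membrane, by edgeR's quasi-likelihood test with Benjamini-Hochberg adjustment over all genes tested in a cell type. Both lists were chosen with earlier results of these data known, so that their counts are no independent support. In plasmatocytes, 10 of the 12 basement membrane genes tested rose at stages 13-16 and none fell (median log2 difference of 1.94, against 0.01 over all genes), where 20.4% of 7552 genes passed, 13.8% higher and 6.65% lower. They included trol, the perlecan gene (log2 difference of 3.66, SE 0.41, adjusted p = 0.00024), Tig, which encodes the integrin ligand tiggrin (3.38, SE 0.39, adjusted p = 0.00027), and Col4a1 (3.12, SE 0.46, adjusted p = 0.0010). Of the 16 maturation genes in the same cells, Plod rose (1.45, SE 0.33, adjusted p = 0.0099) and Ero1L, the oxidase that recharges protein disulfide isomerase, fell (-0.97, SE 0.25, adjusted p = 0.018), with a median of 0.06. Neither share was above that of all genes, so that nothing is read from these calls as a set. PH4alphaEFB itself had a fitted difference of 0.80 in plasmatocytes.

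The counts in the other cell types were as follows. Levels of the list genes in removed droplets are not given, and the part of free RNA in these differences was not tested. In epidermis 9 of 14 basement membrane genes rose and none fell (median 2.33, against -0.02 over all genes; 23.7% of 9683 genes passed, 8.7% lower), and of the maturation genes Plod (1.91) and Fkbp14 (1.43) rose. In fat body 8 of 13 basement membrane genes rose and none fell (median 1.04, against 0.06; background 15.7% and 6.48% of 7827 genes), led by SPARC (3.47), and Plod (2.45), Fkbp14 (1.14) and Hsc70-3, the BiP chaperone gene (0.96), rose among the maturation genes. In somatic muscle 7 of 14 basement membrane genes rose and wb, a laminin alpha gene, fell (-0.79; background 22.4% and 14.6% of 9297 genes). Of the 16 maturation genes in muscle, Plod (1.58), Fkbp14 (0.81) and Ero1L (0.71) rose and KdelR (-0.58) and Gp93 (-0.80) fell. In the CNS 7 of 14 rose and none fell (background 15.1% and 11.4% of 9306 genes), while of the maturation genes 4 rose, with Plod (1.90), Fkbp14 (1.81) and Hsc70-3 (1.14) leading, and prtp fell (-0.64). In trachea 9 of 13 rose and none fell (19.6% of 7194 genes passed, 14.2% higher and 5.42% lower), and over all kept cells 9 of 14 rose and none fell (21.1% of 11977 genes passed, 11.6% higher and 9.45% lower). Of the maturation genes, 4 rose in trachea, led by Plod (2.17), and 2 over all kept cells, Plod (1.86) and Fkbp14 (0.96), with none fallen in either. The fitted differences of PH4alphaEFB were 1.62 in epidermis, 0.83 in fat body, 0.20 in somatic muscle and 0.95 in the CNS.

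In the salivary gland no gene of 4689 tested passed (0.0%), although 519 had an unadjusted p under 0.05 and DESeq2 called 154, so that the maturation genes (15 tested), the basement membrane genes (7), the gland regulators (10) and the gland products (7) had no call by edgeR. Of the regulators, sage, also one of the markers that named these cells, ranked first in the gland in all 4 libraries, with 131 and 661 CPM at stages 13-16, against 905 and 965 CPM at stages 10-12.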

How the data were processed

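Whole embryos were dissociated and run as droplet single-cell libraries with 3′ chemistry. The deposited matrices hold UMI counts per gene and barcode, made by the authors with Cell Ranger 6.1.2 and limited to the barcodes it called cells; Seurat is also named in the submitters' processing notes. No deposited column of other samples was present (0). Genes carry FlyBase identifiers, of which 17800 were matched to a symbol.

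Barcodes with over 25% mitochondrial UMIs were removed. Cells were scaled to 10000 UMIs and clustered on 2000 variable genes, with 30 principal components in the clustering per library. Left out of the variable genes were 66 genes, the described ones and their partners among them. Per library, clusters with under 50 markers were removed as likely empty droplets (24.0% to 40.0% of barcodes), and likely doublets were removed by simulated doublets at a share of 0.008 per 1000 barcodes. The libraries of a stage were then joined, keeping the principal components with a variance above the bound for a random matrix. The joined cells were aligned with Harmony and clustered at resolution 2. A cluster took a cell type name from its best 5 markers when its score was at least 0.75 with 3 or more markers detected. Clusters that scored low and had another name within 0.25, a margin set after the clusters were seen, or that failed the other checks on their leading genes, stayed unnamed (6.39% to 23.7% of cells). Among them was a cluster of stages 13-16 with a salivary gland score of 0.79, above the 0.75 cut, and 3.64% and 3.77% of the kept cells.

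Counts were summed per cell type and library, and CPM used the UMIs of those cells as total. Stage tests between 2 and 2 libraries used edgeR 4.0.16 (TMM, filterByExpr, quasi-likelihood, stage as the only term), with DESeq2 1.42.0 as an alternative, in R 4.3.3. The study's methods describe the 2 libraries of a stage as independently prepared biological replicates. On simulated counts the test recovered 89.4% of 4-fold and 12.7% of 2-fold changes in plasmatocytes. The simulation gave all genes the same fixed spread, not estimated from these libraries, so that recovery in the real counts may differ. Intervals are exact Poisson at 95%, a floor is 3 UMIs, and both cover counting error only. Named genes were the 6 genes, further family genes with at least 50 UMIs, the 3 list genes with the largest rise or fall among those called in a cell type, and the 3 genes most correlated with each of the 6; others were named after their values were seen. The genes and lists were chosen with earlier results of these data known.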

Additional observations from a re-analysis of the deposited data

Results flagged for a closer look

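In 3 of the genes, both libraries of stages 13-16 lay on one side of both libraries of stages 10-12 in one cell type and on the other side in another, and the difference between the cell types was not tested. The share of all genes with such a pattern is not given here, so that nothing is read from this count. PH4alphaSG1 was higher at stages 13-16 in epidermis (9.49 and 4.38 CPM, against 2.07 and 0.387 CPM at stages 10-12, log2 difference of 2.50) and lower in longitudinal visceral mesoderm (47.5 and 18.1 CPM, against 147 and 62.6 CPM, -1.68). Removed droplets held 20.7 and 19.5 CPM of PH4alphaSG1 at stages 13-16, against 4.90 and 2.85 CPM at stages 10-12.

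PH4alphaEFB was higher at stages 13-16 in epidermis (130 and 269 CPM, against 78.8 and 43.5 CPM, 1.70) and lower in crystal cells by a small amount (64.7 and 65.2 CPM, against 69.6 and 90.9 CPM, -0.30). The crystal cells were few, 130 and 51 at stages 13-16, against 38 and 57 at stages 10-12. Their markers summed to 3862 and 81398 CPM at stages 13-16, against 24987 and 13750 CPM at stages 10-12. PH4alphaMP was higher in epidermis (2.16 and 2.72 CPM, against 0.537 and 0 CPM, 3.18) and lower in somatic muscle (0.358 and 0.335 CPM, against 0.921 and 0.541 CPM, -1.08), on 0 to 157 UMIs per library. Removed droplets held 1.40 and 1.03 CPM of PH4alphaMP at stages 13-16, above somatic muscle, against 0.114 and 0.228 CPM at stages 10-12.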

How the results depend on the processing

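The gland levels were the least stable values. The mean level at stages 10-12 was 199.8 CPM for PH4alphaSG1 with no cluster removed as empty, and 779 CPM (PH4alphaSG1) and 1275 CPM (PH4alphaSG2) in cells with at least 5% gland marker UMIs, an alternative chosen after seeing the data. The stage difference in the gland, 0.72 for PH4alphaSG1 and 0.22 for PH4alphaSG2 (log2), was -0.63 and -1.04 with no doublets removed, where the gland class at stages 13-16 held 1522 and 1136 cells in place of 287 and 54, and -0.24 and -0.28 in the 5% cells. Leaving out single libraries gave -1.42 to 1.54 for PH4alphaSG1, negative without stages 13-16 replicate 2, and -1.91 to 1.04 for PH4alphaSG2, which was -0.09 without stages 10-12 replicate 1. With no batch correction no cell of stages 13-16 replicate 1 was named salivary gland. The difference of PH4alphaNE1 stayed negative throughout: -12.31 with no cluster removed as empty and -9.28 by thinned shares in somatic muscle, and -10.16 with no doublets removed and -8.45 by thinned shares in fat body.

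Calls over both lists in the salivary gland numbered 0, but 8 with no filter and 3 with the replicate block; in the CNS they numbered 12, and 6 with the replicate block. Leaving out each library gave 0 to 8 calls in the salivary gland, 10 to 14 in plasmatocytes, 7 to 18 in somatic muscle, 4 to 15 in fat body, 7 to 14 in epidermis, 6 to 15 in the CNS, 8 to 13 in trachea and 6 to 9 in all kept cells. The counts moved by over 1.5 times without stages 10-12 replicate 1 in somatic muscle (7), fat body (7) and trachea (8), without stages 10-12 replicate 2 in somatic muscle (7), fat body (4), epidermis (7), trachea (8) and all kept cells (7), and without stages 13-16 replicate 1 in the CNS (6), all kept cells (6) and the salivary gland (6). Without stages 13-16 replicate 2 the salivary gland had 8. The replicate numbers were not shown to pair libraries (correlation of same-numbered deviations of -0.354 to 0.0778); with the replicate block, genes called moved to 626 in the CNS, against 2467 without it, and to 144 in the salivary gland, against 0. Crossing the numbers, chosen after seeing the data, gave 3346 calls in the CNS and 0 in the salivary gland. By Spearman correlation, 0 of the 3 most similar genes were retained for PH4alphaSG1, PH4alphaNE1 and PH4alphaMP and 1 for PH4alphaSG2. Over all results, alternatives other than leaving out a library left 142 values the same, moved 23 and reversed 4, and leaving out a library left 111 the same, moved 12 and reversed 3. On simulated counts of fixed spread with 2 libraries per stage, 2-fold changes were mostly under the reach of the test.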
